A study of Mus musculus with 3 samples.

Results

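Hyperpolarization-activated, cyclic nucleotide-gated (HCN) channel genes and Pex5l, the gene of their best-known auxiliary protein, were examined in cultured mouse hippocampal neurons. The 4 genes were Hcn2, Hcn3, Hcn4 and Pex5l, taken by gene symbol from the 47593 gene rows of the deposited expression files. All 4 were present in every file, and all 4 exceeded 1 CPM (read per 1000000 reads) in every library. Of all protein-coding genes, 59.2% reached that level in every library. RNA sequencing had been run on 3 libraries of wild-type (WT) primary neurons from mouse hippocampus, replicates 1 to 3. All 3 belonged to a single group, given fresh medium with B27 and penicillin-streptomycin. Culture was in Neurobasal medium supplemented with 10% B27 plus 1% GlutaMAX, at 37 °C under 5% CO2. The series design gives a treatment time of 24 h and also names apoE particles, but neurons given apoE particles were not analysed here, and only the fresh-medium arm is described. The labels do not say whether each library is its own culture or animal, so p-values below measure the spread between these libraries, which may be technical.

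HCN subunits form cation channels that open when the membrane becomes more negative and carry the current called Ih. In hippocampal pyramidal cells and interneurons this current sets the resting potential, dampens dendritic summation and contributes to rhythmic firing. Each subunit has a pore with a potassium-channel signature sequence and, inside the cell, a cyclic nucleotide-binding domain. Binding of cyclic AMP makes HCN2 and HCN4 open more readily, whereas HCN3 responds little. Pex5l encodes TRIP8b, a relative of the peroxisomal import receptor PEX5. TRIP8b binds the last residues of HCN subunits and a second site at the cyclic nucleotide-binding domain, controls their delivery to the surface, and opposes the effect of cyclic AMP.

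The sequences that bear on these roles are shown first, from the GENCODE M21 transcripts of GRCm38 (coding strand, 5′ to 3′). The carboxyl-terminal end is what TRIP8b recognises. Below are the last 30 coding bases and the stop codon of each subunit gene, with the last 3 codons before the stop in capitals.
Hcn2: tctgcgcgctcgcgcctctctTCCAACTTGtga
Hcn3: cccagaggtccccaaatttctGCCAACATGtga
Hcn4: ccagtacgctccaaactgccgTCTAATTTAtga
Hcn2 and Hcn4 had 0 of these 3 codons in common base for base, yet all 3 codons were synonymous between them. Hcn3 encoded the same residue as Hcn2 at 1 of the 3 codons and the same residue as Hcn4 at 1 of the 3.

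The pore was more alike. The motif GGNTANGGN, which covers the codons of the potassium-channel filter signature, was searched in frame on the coding strand and occurred 1 time in each of the 3 genes. Such a match was found in 6.06% of 21715 longest coding sequences of mouse genes. The match is in capitals, with 30 coding bases on each side.
Hcn2: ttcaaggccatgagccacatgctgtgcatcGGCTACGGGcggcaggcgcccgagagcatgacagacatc
Hcn3: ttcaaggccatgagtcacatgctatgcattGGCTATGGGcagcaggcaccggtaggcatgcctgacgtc
Hcn4: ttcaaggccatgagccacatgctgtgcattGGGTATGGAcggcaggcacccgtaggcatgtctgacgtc
Of the 69 bases, 54 were the same in all 3 genes, with 56 shared by Hcn2 and Hcn3, 58 by Hcn2 and Hcn4 and 62 by Hcn3 and Hcn4. Over the whole coding sequence the aligned bases were 72.1% identical between Hcn2 and Hcn3, 76.3% between Hcn2 and Hcn4 and 75.8% between Hcn3 and Hcn4. The longest uninterrupted run that 2 of the genes shared was 33 bases, and no stretch of 50 bases in a transcript of Hcn2, Hcn3 or Hcn4 occurred in either of the others.

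The genes lie apart in the genome (GRCm38). Hcn2 spans chromosome 10 from 79716634 to 79736108 on the plus strand, Hcn4 chromosome 9 from 58823412 to 58863175 on the plus strand, and Hcn3 chromosome 3 from 89146074 to 89160196 on the minus strand. Each of the 3 has 8 exons in its longest coding transcript. Pex5l lies on the minus strand of chromosome 3 from 32949408 to 33143247, a span of 193840 bases, with 12 annotated transcripts of which 9 are protein coding. The annotated exons together cover 3195 bases in Hcn2, 4154 in Hcn3, 6118 in Hcn4 and 8846 in Pex5l. The coding sequences are 2592, 2340, 3606 and 1953 bases long in the same order. In Pex5l the exon total is far longer than the coding sequence, which lowers any level given per kb of exon.

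Hcn2 had 1258, 1123 and 1350 reads in replicates 1, 2 and 3. These reads were recovered from deposited log2 values of 10.28, 10.23 and 10.32, and amounted to 67.0, 60.1 and 71.5 CPM. Replicate 3 was highest and replicate 2 lowest, and the mean was 66.2 ± 5.73 CPM (SD, n = 3). HCN2 is the subunit with the strong cyclic AMP response that is widespread in brain.

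Hcn3, whose product responds little to cyclic AMP, followed with 1173, 1048 and 1174 reads (deposited log2 10.16, 10.11 and 10.16). In CPM these were 62.5, 56.1 and 62.2, a mean of 60.2 ± 3.59 (SD, n = 3). Replicate 2 was again the lowest, and the other two libraries were nearly equal.

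Hcn4, known for the slow pacemaker current of the sinoatrial node and of some brain neurons, had 990, 869 and 930 reads (deposited log2 9.88, 9.84 and 9.86). Its level was 52.7, 46.5 and 49.2 CPM, with a mean of 49.5 ± 3.11 CPM (SD, n = 3). As for the other subunit genes, replicate 2 was lowest, but here replicate 1 was highest. Of 15131 genes averaging at least 10 reads, 38.5% were lowest in replicate 2, more than in either other library.

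Pex5l had 413, 442 and 433 reads (deposited log2 8.73, 8.75 and 8.75). These corresponded to 21.99, 23.66 and 22.93 CPM, with a mean of 22.9 ± 0.84 CPM (SD, n = 3). Its order among libraries was the opposite of that of the subunit genes in that replicate 2 was highest. However, the 3 counting intervals of Pex5l overlapped, as did those of Hcn3 and those of Hcn4. For Hcn2 the interval of replicate 2 ended at 63.7 CPM, below that of replicate 3, which began at 67.7 CPM.

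**Figure D1:**
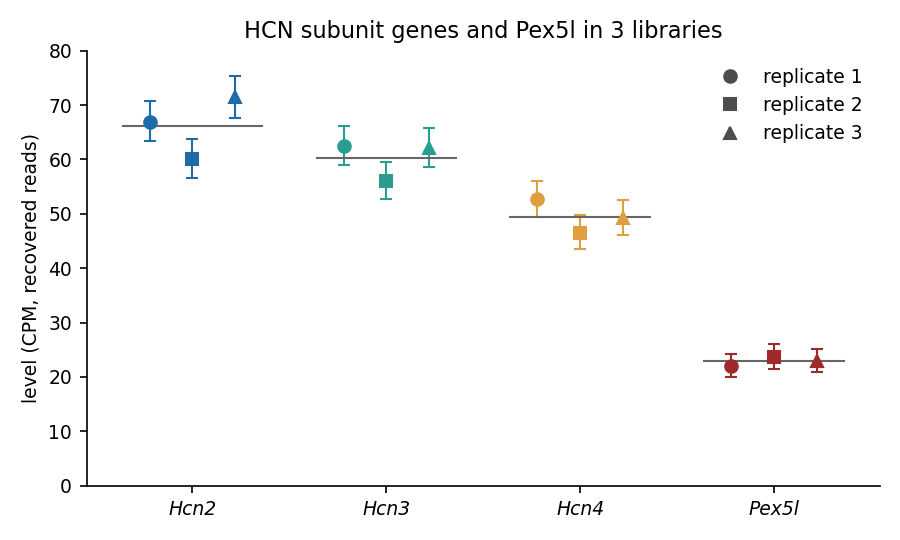
Level of each gene in CPM from recovered reads (vertical axis) in each library; points are libraries, bars are exact 95% Poisson intervals for counting error and horizontal lines are means. Hcn2, Hcn3 and Hcn4 lie between 46.5 and 71.5 CPM with replicate 2 lowest in each, as in 38.5% of 15131 genes. Pex5l lies between 21.99 and 23.66 CPM.

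Levels of different genes were compared per kilobase (kb) of annotated exon. Hcn2 reached 20.97, 18.81 and 22.37 CPM per kb in replicates 1, 2 and 3, Hcn3 15.0, 13.5 and 15.0, Hcn4 8.62, 7.60 and 8.05, and Pex5l 2.49, 2.67 and 2.59. On this scale the order was Hcn2, Hcn3, Hcn4, Pex5l, and the ranges of neighbouring genes did not overlap. Among 12472 protein-coding genes detected at 1 CPM or more in every library, these levels stood at percentile 80.5 for Hcn2, 72.4 for Hcn3, 55.6 for Hcn4 and 26.9 for Pex5l.

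Ratios were formed within each library as log2 differences of deposited levels per kb, with a pseudocount of 0.5 CPM per kb, so a fold here is on that scale. Hcn2 exceeded Hcn3 by 0.50 ± 0.02 (SD, n = 3), a 1.41-fold ratio. Hcn2 exceeded Hcn4 by 1.30 ± 0.03, or 2.47-fold, and Hcn3 exceeded Hcn4 by 0.80 ± 0.01, or 1.75-fold. Because the deposited values are shrunken, the SDs of the same 3 ratios in recovered reads were larger, at 0.06, 0.10 and 0.05. Each ratio had its sign in 3 of 3 libraries. For each of the 7 pairs compared, the two-sided exact sign-flip permutation p was 0.25 (Benjamini-Hochberg adjusted 0.25), the smallest that 3 libraries allow.

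The order of Hcn2 and Hcn3 depended on the length used. Per kb of coding sequence the log2 ratio of Hcn2 over Hcn3 was −0.01, smaller than the SD of 0.06 that this ratio had between libraries in recovered reads. Hcn3 shares 711 exon bases, 17.1% of its exon length, with Pklr on the opposite strand. Taking these bases off the length, with the reads of Hcn3 unchanged, gave 0.24. Pklr, a pyruvate kinase gene of liver and red cells, itself had 4, 8 and 1 reads. The sources used here do not say whether counting used the strand. If it did not, reads from the overlap can be lost or moved between the genes, so the level of Hcn3 is uncertain to that extent. Hcn4 was the lowest subunit gene under each length measure tried, including none, but by less in CPM without length scaling, where the log2 ratios of Hcn2 and Hcn3 over Hcn4 were 0.42 and 0.28.

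As shares of the summed RNA of the 3 subunit genes per kb, in recovered reads, Hcn2 made up 47.0%, 47.1% and 49.3% in replicates 1, 2 and 3. Hcn3 made up 33.7%, 33.8% and 33.0%. Hcn4 made up 19.31%, 19.04% and 17.73%. The shares moved by no more than a few percentage points between libraries, with SDs of 1.29, 0.46 and 0.84. Per kb of coding sequence, in deposited values, they were 39.3% for Hcn2, 39.6% for Hcn3 and 21.1% for Hcn4.

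Pex5l lay below each subunit gene. Its ratio to Hcn2 was −2.78 ± 0.05 on the log2 scale (SD, n = 3), its ratio to Hcn3 −2.28 ± 0.03 and its ratio to Hcn4 −1.48 ± 0.03. In recovered reads the SDs were 0.15, 0.12 and 0.13. The direction was the same in 3 of 3 libraries, but the size rested on the long untranslated and alternative exons of Pex5l. Per kb of coding sequence the 3 ratios were −1.09, −1.10 and −0.22, and per kb of the longest coding transcript −1.84, −1.39 and −0.53. The level of Pex5l was 0.06 ± 0.006 times the sum of the 3 subunit genes per kb of exon and 0.18 ± 0.02 times that sum per kb of coding sequence (recovered reads, SD, n = 3). In replicates 1, 2 and 3 the second of these ratios was 0.17, 0.20 and 0.17, highest in replicate 2.

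The relative of Pex5l, Pex5, which carries enzymes into peroxisomes, had 1268, 1221 and 1196 reads, or 65.4 ± 2.09 CPM (SD, n = 3). Pex5l over Pex5 was −2.47 ± 0.02 on the log2 scale per kb of exon (SD 0.08 in recovered reads) and −1.50 per kb of coding sequence. Pex5l is thus below Pex5 under both lengths. Exons of Pex5l overlap 2 antisense genes, Gm37459 over 340 bases and 4930419G24Rik over 24 bases. Gm37459 had 34, 34 and 57 reads. If counting did not use the strand, reads from the shared bases can be lost or moved between Pex5l and these genes.

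**Figure D2:**
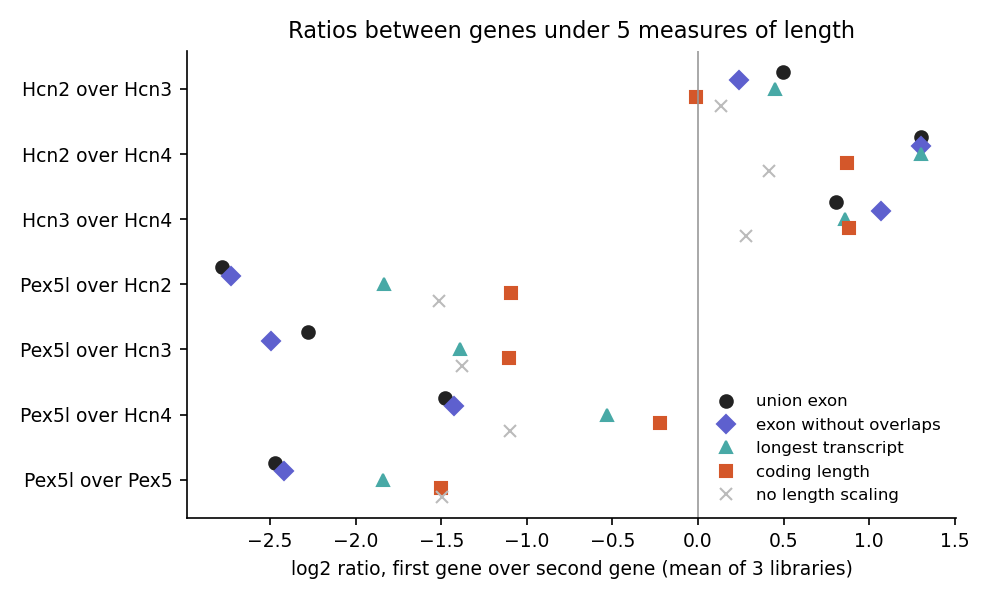
Log2 ratios between genes, first over second (horizontal axis, mean of 3 libraries), for the 7 pairs under 5 measures of length. Hcn2 over Hcn3 runs from −0.01 with coding length to 0.50 with union exon length, while the ratios of Hcn2 and Hcn3 over Hcn4 stay above 0 and those of Pex5l stay below 0.

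The next question was whether the 4 genes differed between the 3 libraries by more than counting error. A chi-square test (2 degrees of freedom) of recovered reads against counting error was run on 15131 genes, and 8.62% were called at an adjusted p below 0.05. Of the 4 genes 1 was called, Hcn2, with a 1.19-fold range between libraries after scaling (chi-square 18.8, adjusted p = 0.0023 over all genes tested). At an unadjusted p below 0.05 the share of all genes tested was 20.7%. Hcn3 had a 1.11-fold range (unadjusted p = 0.023, adjusted p = 0.15), Hcn4 1.13-fold (unadjusted p = 0.040, adjusted p = 0.21) and Pex5l 1.08-fold (unadjusted p = 0.50, adjusted p = 0.75). The call for Hcn2 was lost without replicate 2 (adjusted p = 0.49) and without replicate 3 (adjusted p = 0.11), and held without replicate 1 (adjusted p = 2.66e-04).

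The size of the spread comes from the same recovered reads, so it describes the same differences and is no separate test. The coefficient of variation of Hcn2 was 8.66%, above that of 96.9% of the 2433 genes within 0.5 log2 units of its level, whose median was 3.54%. Hcn3 at 5.97% and Hcn4 at 6.28% stood at percentiles 83.5 and 82.9 of their neighbours in level. Pex5l at 3.65% stood at percentile 31.1, with counting error alone giving 4.83%.

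Transcript GC content was set beside these differences, and its part in them was not tested. The longest annotated transcript of Hcn2 has 65.4% GC, above that of 99.6% of the genes tested, and those of Hcn3 and Hcn4 both have 58.0%. That of Pex5l has 47.2%, at percentile 37.4. Genes averaging at least 100 reads were split into 10 bins of GC content. The bin with the highest GC content had a median log2 deviation of −0.07 in replicate 2 and of 0.03 in replicates 1 and 3. The bin with the lowest had 0.05 in replicate 2, −0.01 in replicate 1 and −0.03 in replicate 3. Hcn2, Hcn3 and Hcn4 deviated by −0.14, −0.10 and −0.09 in replicate 2, and Pex5l by 0.05. The 3 subunit genes deviated by 0.01, 0.04 and 0.08 in replicate 1 and by 0.12, 0.05 and −0.0025 in replicate 3. With size factors estimated in 10 bins of GC content, 5.12% of 14616 genes were called. All 3 subunit genes fell in the top bin and so were shifted alike in each library. Hcn3 and Hcn4, at GC percentiles 90.7 and 90.6, were at its lower end and Hcn2 at its upper end. The bins could therefore not treat them separately. The deviations of the 3 subunit genes in replicate 2 were −0.07, −0.03 and −0.02. In replicate 1 they were −0.02, 0.02 and 0.06, and in replicate 3 they were 0.08, 0.02 and −0.04. That of Hcn4 in replicate 3 was thus larger in size than before. Hcn2 was then not called (1.11-fold range, adjusted p = 0.21). The GC content bins were added after seeing the data.

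**Figure D3:**
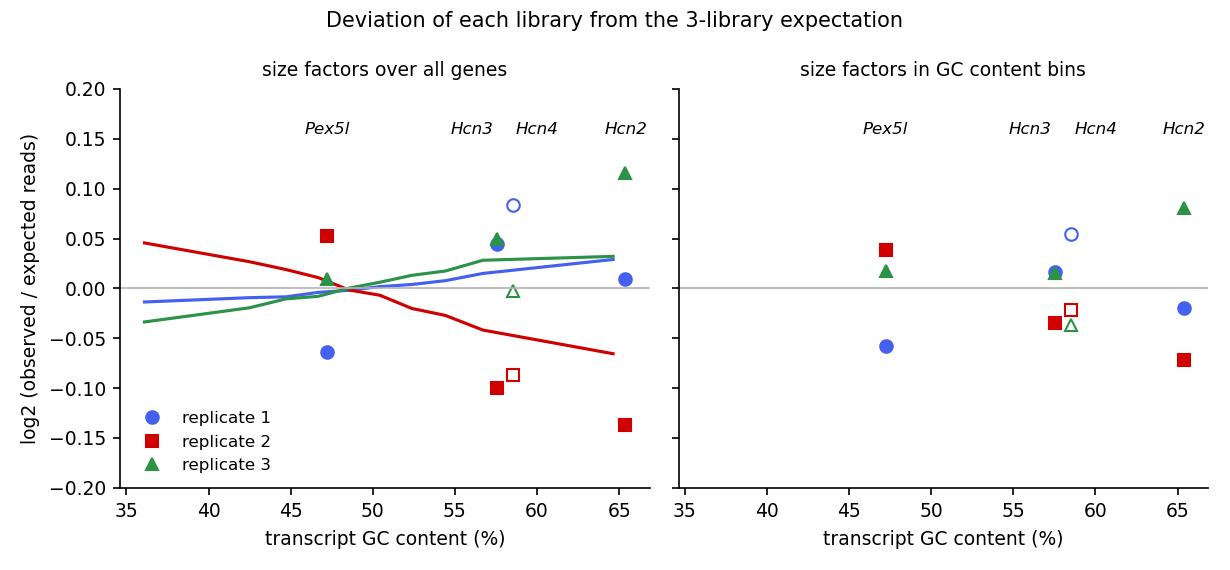
Log2 of observed over expected reads (vertical axis) against transcript GC content in percent (horizontal axis) for the 4 genes in each library; Hcn3 and Hcn4 (open symbols) are moved apart sideways by 0.5 points to be visible. Lines at left are medians of genes in 10 bins of GC content, and replicate 2 falls with GC content. At right, size factors were set within GC content bins. There the subunit genes, at −0.14 to −0.09 in replicate 2 at left, lie closer to 0 in that library. They fall in the same bin, so they are shifted alike. In replicate 3 Hcn2 lies at 0.12 at left and 0.08 at right, and Hcn4 at −0.0025 and −0.04.

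Cell type markers were examined beside these levels, since bulk RNA cannot tell fewer cells of a type from less RNA per cell. For all protein-coding genes the share detected was 59.2%. All 6 neuronal and all 6 excitatory markers and 6 of 7 inhibitory markers were detected, with the interneuron gene Pvalb below 1 CPM at 25 reads in all. Among the highest were Map2, Stmn2 and Syt1 of neurons, Neurod6, Camk2a and Nrgn of excitatory cells, and Gad1, Sst and Gad2 of inhibitory cells. Of 5 astrocyte markers 4 were detected, led by Slc1a3, Aqp4 and Gfap, with Gjb6 at 14 reads. All 4 oligodendrocyte precursor markers, Olig1, Olig2, Pdgfra and Cspg4, passed 1 CPM, and so did 3 of 5 oligodendrocyte markers, Mbp and Mog among them, with Mag at 2 reads and Mobp at 1 read. None of 5 microglial markers (Cx3cr1, Csf1r, P2ry12, Tmem119 and Aif1, at 6 to 50 reads in all) and none of 4 endothelial markers (Pecam1, Flt1, Cdh5 and Cldn5, at 0 to 42 reads in all) reached 1 CPM in every library. In recovered reads Csf1r (10, 18 and 22) passed 1 CPM in replicate 3 only and Cx3cr1 (13, 20 and 16) in replicate 2 only.

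The marker lists did not share 1 order of libraries. Replicate 2, where Hcn2 was lowest, was lowest for the excitatory markers, which took 0.102%, 0.101% and 0.106% of reads in replicates 1, 2 and 3, and for the inhibitory markers, at 0.0952%, 0.0929% and 0.0949%. It was highest for the neuronal markers, at 0.408%, 0.412% and 0.404%, and for the astrocyte markers, at 0.136%, 0.138% and 0.135%. Gene by gene, both of these lists were divided. Of the genes tested, 2 of 6 neuronal and 2 of 4 astrocyte markers were lowest in replicate 2, and 2 of each were highest there. Among the 6 inhibitory markers tested, 4 were lowest in replicate 2, against 38.5% of all genes tested, and 1 was highest there. Map2, the largest of the neuronal list, had 28370, 29620 and 28110 reads, whereas Tubb3 had 9602, 8650 and 9220. Hcn2 is also known from cells of the oligodendrocyte lineage. Their precursor markers took 0.0267%, 0.0250% and 0.0266% of reads, lowest in replicate 2, whereas the oligodendrocyte markers took 0.00345%, 0.00358% and 0.00368%, lowest in replicate 1. Among the precursor markers Olig1 had 3097, 2767 and 3110 reads, and Pdgfra, highest in replicate 2, had 530, 541 and 531. The excitatory list was divided too, with 3 of its 6 genes lowest in replicate 2, against 38.5% of all genes tested. Nrgn was one of these, with 3408, 2891 and 3559 reads, whereas Neurod6 was highest in replicate 2, with 7434, 7778 and 7665. The part of these cells in the levels of the 4 genes was not tested.

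Among channels with a cyclic nucleotide-binding domain or its homologue, the 3 subunit genes stood highest per kb. Of 14 other such genes 8 were detected, against 59.2% of all protein-coding genes, and the 8 were all Kcnh genes of the ether-à-go-go potassium channels. The highest per kb were Kcnh3 at 4.26 ± 0.21, Kcnh2 at 3.79 ± 0.25 and Kcnh7 at 3.31 ± 0.21 CPM per kb (SD, n = 3), against 8.09 ± 0.51 for Hcn4. Kcnh3 and Kcnh2 differed by about the sum of their SDs. In CPM without length scaling Kcnh7, at 50.4 ± 3.15, and Hcn4, at 49.5 ± 3.11, did not differ by more than their spread, the annotated exons of Kcnh7 being longer. The cyclic nucleotide-gated channel genes of sensory receptor cells were below 1 CPM in every library: Cnga2 and Cnga4 had 13 reads each over the 3 libraries, Cngb1 5, Cnga3 and Cngb3 2 each, and Cnga1 none. At this depth, 0 reads in a library allow a level of up to 0.16 CPM, the value of 3 reads.

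**Figure D4:**
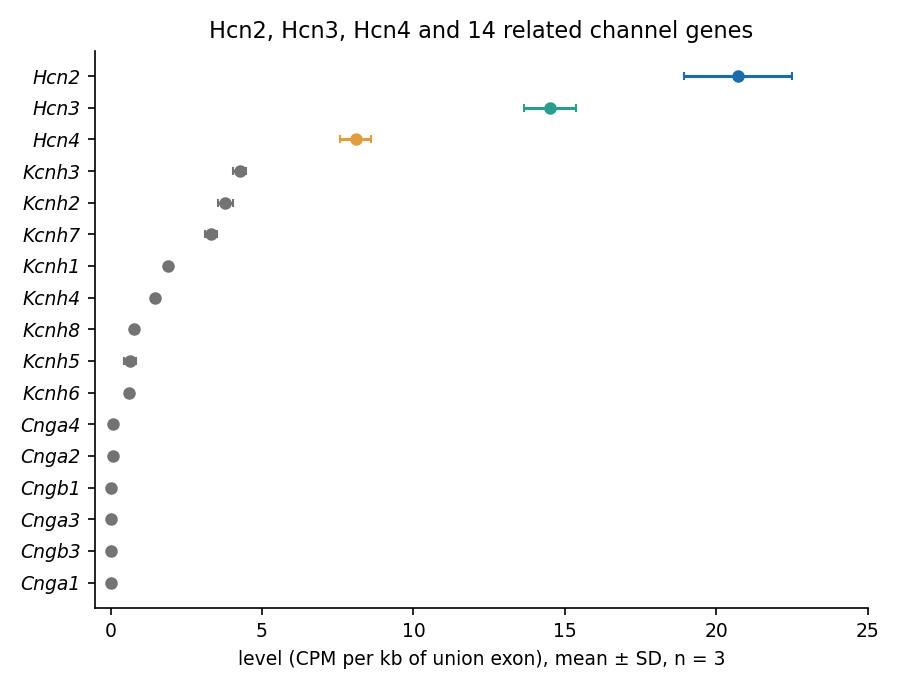
Level in CPM per kb of annotated exon (horizontal axis, recovered reads) of Hcn2, Hcn3, Hcn4 and 14 related channel genes; points are means and bars SDs over 3 libraries. Hcn2, Hcn3 and Hcn4 occupy the top 3 places at 20.7, 14.5 and 8.09, followed by Kcnh3 at 4.26.

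Of 13 genes whose proteins are reported to bind HCN subunits 9 were detected, against 59.2% of protein-coding genes. The highest were Apba2, a scaffold protein of the Mint family, at 224 ± 5.64 CPM, Vapa, a membrane contact protein of the endoplasmic reticulum, at 219 ± 7.18, and Flna, the actin crosslinker filamin A, at 218 ± 2.22 (SD, n = 3). Kctd3, which binds HCN3, had 155.2 ± 1.59 CPM. Below 1 CPM in every library were Kcne2, a small membrane subunit of several potassium channels, with 14 reads, Lrmp with 14 and Mrvi1 with 3, both regulators of HCN4, and the muscle caveolin Cav3 with none. Per kb, the 9 detected partners ranged from 3.91 for Grasp to 62.7 for Vapa, against 2.58 for Pex5l. Pex5l was therefore lower per kb of exon than each detected partner on the list, but in CPM without length scaling Pex5l, at 22.9, was above Grasp, at 7.95 ± 0.33. For 1 of the 9 tested partners, Src, the libraries differed by more than counting error, against 8.62% of all genes tested.

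Adenylyl cyclases make the cyclic AMP that HCN channels bind. Of 10 genes 8 were detected, against 59.2% of all protein-coding genes. The highest was Adcy1, the calcium-stimulated enzyme of the hippocampus, at 687.6 ± 13.98 CPM (SD, n = 3). Adcy5 and Adcy2 followed at 127 ± 3.84 and 56.2 ± 0.87 CPM. Adcy10, the soluble form, had 15 reads and Adcy4 had 1. Of the 8 detected cyclases 1 was called in the chi-square test, Adcy1, with 12618, 13054 and 13072 reads, against 8.62% of all genes tested.

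All 13 genes of peroxisomal protein import were detected, against 59.2% of all protein-coding genes. Pex19, a chaperone of peroxisomal membrane proteins, was highest at 104 ± 2.03 CPM, followed by Pex5 and Pex13, a docking protein, at 45.0 ± 0.70 (SD, n = 3). Per kb of exon the list ran from 1.62 for Pex7, the second import receptor, to 27.2 for Pex19, with Pex5l at 2.58 inside that range. For none of the 13 did the libraries differ by more than counting error at an adjusted p below 0.05 in the chi-square test, and 2 did so at an unadjusted p below 0.05, against 20.7% of all genes tested.

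**Figure D5:**
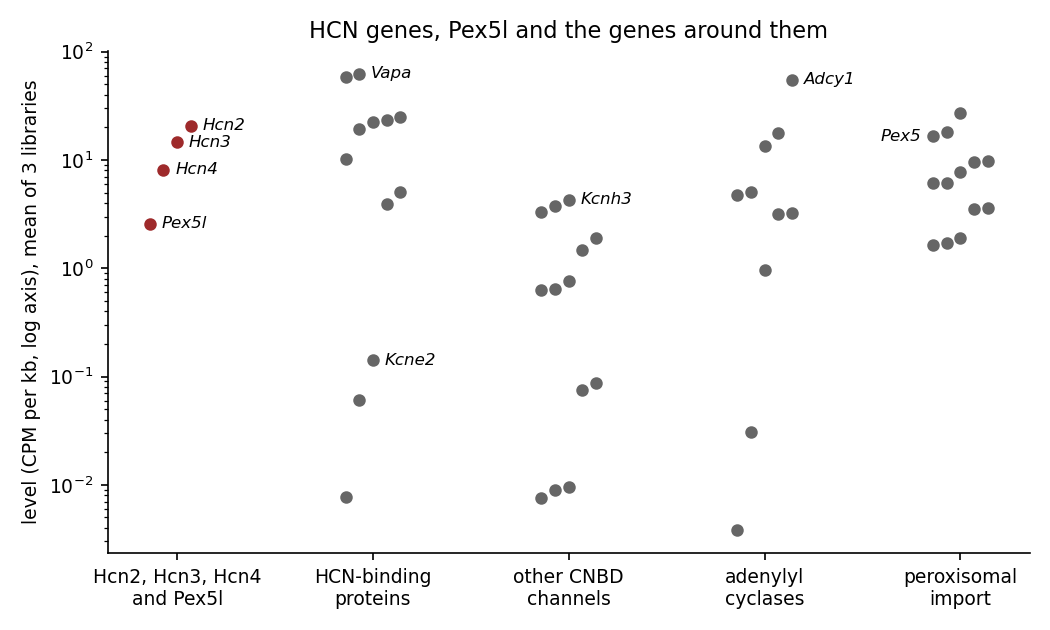
Mean level over 3 libraries in CPM per kb of annotated exon (vertical log axis, recovered reads) of the 4 genes and of 4 gene lists; each point is a gene, and Cav3 and Cnga1, without reads, are not drawn. Hcn2, Hcn3 and Hcn4 at 8.09 to 20.7 lie within the range of the detected HCN-binding proteins and above the other channels with a cyclic nucleotide-binding domain (CNBD), and Pex5l lies at 2.58.

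The genes most like each of the 4 were taken as the 3 with the smallest Euclidean distance in deposited log2 value over the 3 libraries. This measures a like level, without length scaling, and a like order of libraries within 1 group. They were Nav2, Cops8 and Rae1 for Hcn2 (distances 0.02), Dbnl, Srrt and Zfp777 for Hcn3 (0.01 to 0.02), Agpat4, Eid2 and Cog1 for Hcn4 (0.01 to 0.02), and Gmcl1, Zfp869 and Nubp2 for Pex5l (0.004 to 0.01).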

How the data were processed

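RNA was sequenced by BGI on the DNBSEQ platform, per the labels' protocols. The deposited files hold log2 expression, 1 value for each gene in each library. The submitters' processing notes name FastQC, HISAT2, featureCounts and DESeq2 on GRCm38, without versions, settings or roles. The log2 values have the form of a regularized log, which shrinks differences between libraries. To recover reads, a negative binomial fit with a ridge penalty (6 parameters) was inverted; 99.9% of 67797 values lay within 0.1 of whole reads (20% by chance), and all 12 values of the 4 genes within 0.02. Genes with 1 read in all (3097) were set from their pattern. The sums were 18780572, 18683966 and 18885652 reads for replicates 1, 2 and 3; intervals and floors cover counting error only.

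Annotation was GENCODE M21. CPM values in the text are those of recovered reads; pair ratios and detection (1 CPM) use deposited values. The chi-square test took genes averaging at least 10 reads, scaled by median-of-ratios size factors, and was checked on simulated data. Python 3.11.15, NumPy 2.4.6, SciPy 1.17.1, pandas 2.3.3, Biopython 1.88 and matplotlib 3.10.9 were used. The members, the 12 gene lists and the pairs were chosen with earlier results of these data known. Named genes were the 4 members, the 3 highest of each list, those below 1 CPM in every library, the 3 nearest genes of each member and Pex5; Kctd3, Grasp, Pex7, Src, Cspg4 and the genes overlapping Hcn3 and Pex5l were named after their values were seen, and some genes under the rule are not reported here. Alternatives were other pseudocounts, lengths, thresholds, scalings and filters, recovered reads, and leaving out each library.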

Additional observations from a re-analysis of the deposited data

How the results depend on the processing

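No paired analysis was possible because the 3 libraries form a single group. Of 70 alternative values of the pair ratios, 69 kept their direction, but 39 moved by more than 1 SD of the deposited ratio. The log2 ratio of Hcn2 over Hcn3 reversed to −0.012 with coding length. Hcn2 over Hcn4 ran from 0.42 without length scaling to 1.35 with a pseudocount of 0.1, and Pex5l over Hcn4 from −1.61 with a pseudocount of 0.1 to −0.22 with coding length. Of 40 alternative shares and levels, 30 stayed within 1 SD, and of 71 counts of genes, 66 stayed within 1.5 times. Leaving out a library could not reverse a ratio with 1 sign in 3 of 3 libraries. Nor could another pseudocount, because the same value is added to both genes. These alternatives are among the 70, so the count of 69 overstates how far direction was tested. Shares of Hcn2, Hcn3 and Hcn4 moved from 47.8%, 33.5% and 18.7% to 37.6%, 34.2% and 28.1% without length scaling. They moved to 39.3%, 39.6% and 21.1% with coding length. With overlapping exon bases taken off the length and the reads unchanged, they were 44.7%, 37.8% and 17.5%. With the longest coding transcript the share of Hcn3 was 34.3%. These moves follow from the lengths. The 1304 genes called between libraries became 748 with GC content bins and 334 to 1187 with 1 library left out (334 without replicate 2, 835 without replicate 3). At 0.5 CPM, 3 microglial markers and 1 endothelial marker were detected. Hcn2 lost its call with GC content bins and without replicate 2 or 3; the cause was not tested. With 3 libraries no exact test of a ratio can go below 0.25, and depth limits genes with few reads.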
